A study of Mus musculus with 4 samples.

Results

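The genes described here are 9 markers of macrophages and other myeloid cells: Lyz1, Lyz2, Tyrobp, Fcer1g, Csf1r, Cd68, Ptprc, Aif1 and Itgam. They were taken by name, from a list, as every non-control probe of the arrays that carried one of these symbols. That gave 9 genes of 35157 on the array, and 14 probes. A single probe measured 6 of the genes, 2 probes measured Cd68, and 3 probes each measured Csf1r and Itgam.

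Macrophages and their monocyte precursors clear microbes and dead cells. They digest bacterial walls with lysozyme, read antibodies and lipids through receptors that signal by small adaptor proteins, and depend on the growth factor receptor Csf1r. Cultured fibroblasts and pluripotent stem cells are not myeloid cells, and these genes are not counted among the usual markers of either.

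The study set the RNA of 4 mouse cell populations on 1-colour Agilent arrays, 1 array each. The lines iPS-OSH and iPS-J are induced pluripotent stem (iPS) cells, made from body cells by reprogramming, with the C57BL/6 background. The others were embryonic stem cells (ESC) with the 129SV background and mouse embryonic fibroblasts (MEF), connective tissue cells, with the C57BL/6 background. Both iPS lines and ESC were grown in a medium with 15% serum and the cytokine LIF, and MEF in a medium with 10% serum and no LIF. The labels name no genotype, reprogramming factor, passage or age, and give no number of cultures or animals behind an array. Because there are no replicates, no difference has a test, and genes were counted by a rule of size, a difference of at least 2-fold between a pair of arrays.

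Signals are Agilent processed signals, in arbitrary intensity units. A relative signal is that signal divided by the 75th percentile of the same array, which was 1563.9 for iPS-OSH, 1241.3 for iPS-J, 1307.4 for ESC and 1764.8 for MEF, and log2 differences are between relative signals. Of all non-control spots, 67.0% to 81.7% were well above background. The spots of probes printed 10 times set the spot noise of a log2 difference at an SD of 0.14 to 0.21, and of 0.30 to 0.47 for dim probes (relative signal 0.03 to 0.3). The spread between cultures is not in these SDs. All 14 probes were well above background on all 4 arrays. The ERCC control probes gave a stricter level, called the ERCC level here, at their 95th percentile, which was a signal of 119.6 for iPS-OSH, 97.6 for iPS-J, 255 for ESC and 267 for MEF. Above it lay 13 of the 14 probes for iPS-OSH, 9 for iPS-J, 8 for ESC and 12 for MEF. Both iPS lines were scanned in session 2, ESC in session 3 and MEF in session 1. In comparisons with ESC or MEF the scan session therefore cannot be told apart from the population. The MEF array was read with array design version 1 and the others with version 2, so in comparisons with MEF the version cannot be told apart either. Strain and cell type cannot be told apart in comparisons with ESC either.

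The labelled populations were checked on genes that define them. All 6 pluripotency genes were at least 2-fold higher in each of iPS-OSH, iPS-J and ESC than in MEF, with median log2 differences between 8.86 (iPS-OSH) and 9.76 (ESC). Over all genes, 12.6%, 16% and 21.8% were higher in these comparisons. Pou5f1, a core pluripotency factor, gave relative signals of 6.68 in iPS-OSH, 9.56 in iPS-J, 5.66 in ESC, against 0.0473 in MEF. Sox2, Nanog, Dppa5a and Fgf4 followed it, with the pluripotent populations within 2-fold of each other. Zfp42 was also far above MEF, but it set ESC apart, with a relative signal of 131.7 there. The Zfp42 signal of iPS-OSH was 4.64, which was 28.4-fold lower than that of ESC. For iPS-J it was 6.80, or 19.4-fold lower than for ESC. Sox2 and Zfp42 were not well above background in MEF. All 7 fibroblast genes were at least 2-fold lower in iPS-J and in ESC than in MEF, beside 23.6% and 16.5% over all genes. In iPS-OSH 5 of the 7 were lower than in MEF and 1 was higher, beside 23.4% and 12.6% over all genes. The higher gene was Dcn, which encodes the matrix proteoglycan decorin, with relative signals of 39.4 in iPS-OSH and 15.6 in MEF. The summed relative signal of the 7 fibroblast genes was 276 in iPS-OSH, 52.5 in iPS-J, 42.4 in ESC, against 875 in MEF.

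The probes that carry the results are shown first, 5′ to 3′, with the mm9 positions given in the array files. Exon and UTR are not stated, because no mm9 annotation was used here. The Tyrobp probe (chr7:31200651-31202378, plus strand, so it spans 1728 bases of genome for 60 bases of transcript) reads into the part of the gene that signals. Its capitals mark the codons that run from the tyrosine to the leucine of the first step of its activation motif. The Lyz2 probe (chr10:116719175-116719234, minus strand) is shown because Lyz2 has a close copy in Lyz1.
Tyrobp: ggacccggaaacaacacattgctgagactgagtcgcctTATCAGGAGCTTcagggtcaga
Lyz2: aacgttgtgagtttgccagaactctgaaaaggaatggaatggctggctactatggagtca

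The Itgam probes are shown because they disagree on which population is highest. On the plus strand of chromosome 7, the first starts at base 270 of the transcript (chr7:135212140-135212199), the second at base 3410 (chr7:135260275-135260334) and the third at base 4431. The first 30 bases of the third (chr7:135261755-135261784) are given, with its run of CA in capitals.
Itgam, base 270: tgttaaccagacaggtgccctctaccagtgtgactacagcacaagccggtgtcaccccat
Itgam, base 3410: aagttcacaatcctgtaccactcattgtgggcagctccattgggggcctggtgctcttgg
Itgam, base 4431, first part: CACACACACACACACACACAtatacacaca

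**Figure D1:**
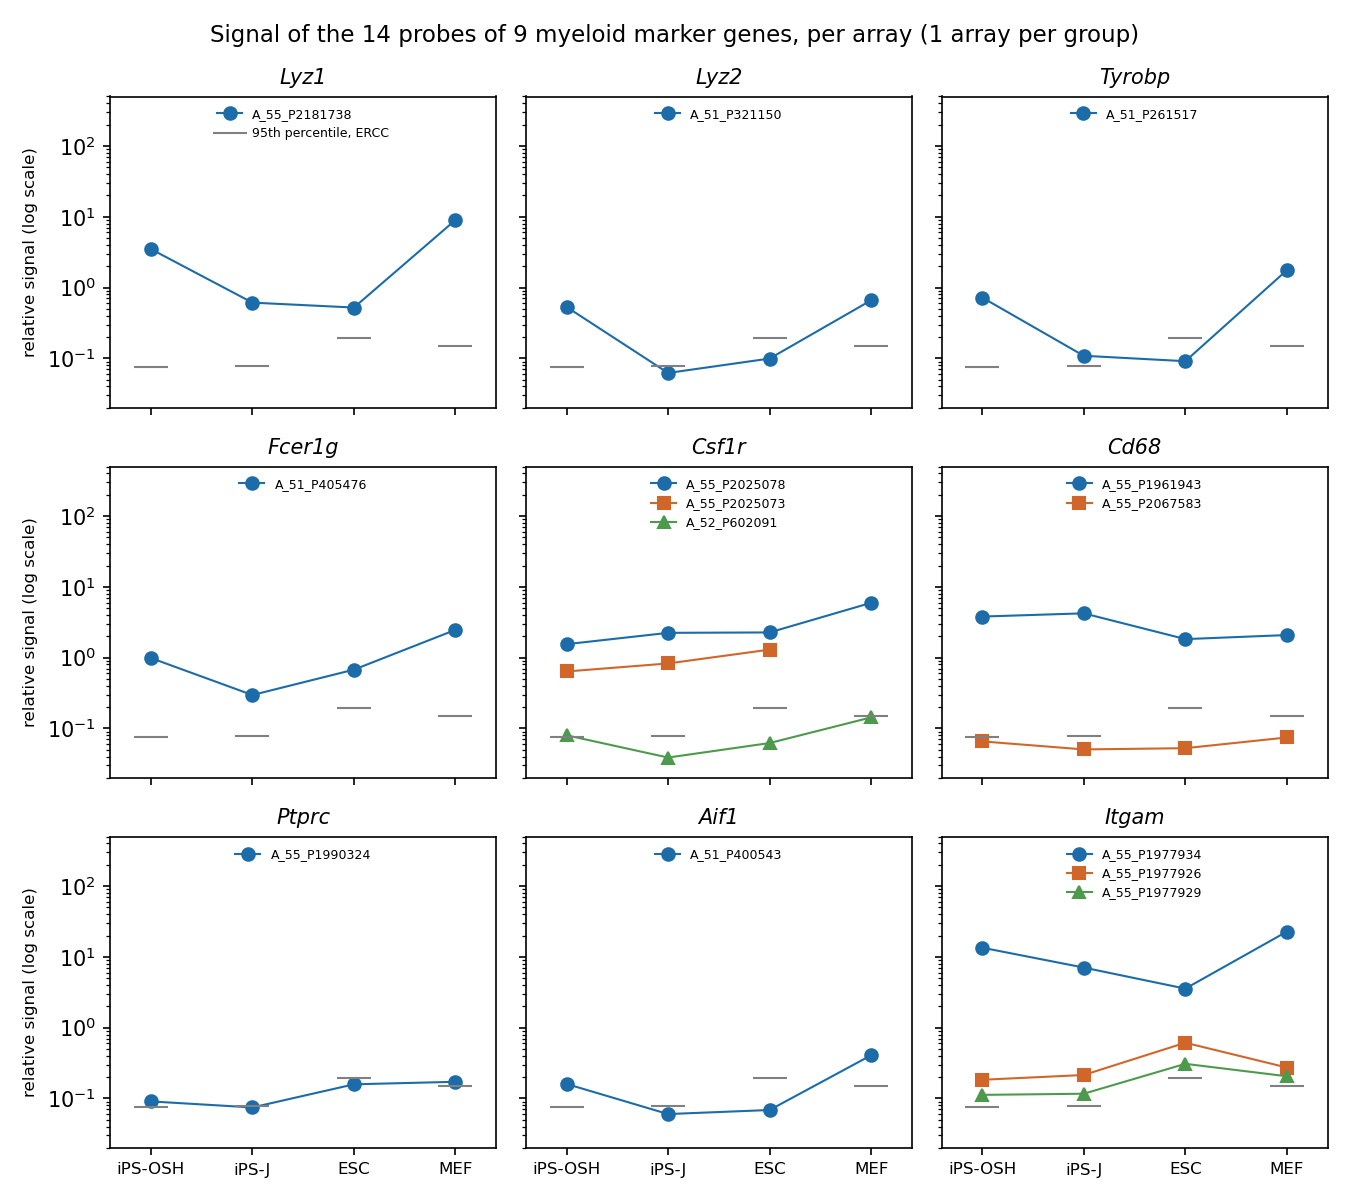
Relative signal (array signal over the array's 75th percentile, log axis) of each of the 14 probes on the iPS-OSH, iPS-J, ESC and MEF arrays, 1 panel per gene, with grey bars at the ERCC level of each array. Lyz1, Lyz2, Tyrobp and Aif1 are high in iPS-OSH and MEF and low in iPS-J and ESC, and the Csf1r point on MEF for which the spot was uneven is left out.

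Lyz1 and Lyz2 encode the secreted enzymes that cut the wall of bacteria, and Lyz2 is the form by which mouse macrophages are usually marked. Lyz1 (chr10:116724862-116724921) gave signals of 5470 in iPS-OSH, 760 in iPS-J, 681 in ESC and 15891 in MEF. Lyz2 had 832 in iPS-OSH, 77.0 in iPS-J, 130 in ESC and 1166 in MEF. For both genes MEF was highest and iPS-OSH next, and iPS-J and ESC lay far below. The signal of Lyz2 was under the ERCC level on the iPS-J and ESC arrays, so its differences from those arrays rest on a dim spot. Lyz1 was 5.72-fold higher in iPS-OSH than in iPS-J and 6.71-fold higher than in ESC, and it reached 38.8% of the MEF level. Lyz2 was 8.57-fold higher in iPS-OSH than in iPS-J and 5.36-fold higher than in ESC, and at 80.5% of the MEF level it lay within 2-fold of MEF. The probes of close copies can share RNA, and how far the Lyz1 and Lyz2 probes do so was not tested.

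The other genes of the lysozyme family went another way. Of 6, Lyzl1, Lyzl4, Lyzl6, Spaca5 and Lalba were well above background on some array, and Spaca3 on none. ESC was highest for 4 of the 5, and in none of them were both iPS-OSH and MEF above both iPS-J and ESC. Lyzl6 gave relative signals of 0.277 in iPS-OSH, 0.229 in iPS-J, 0.648 in ESC and 0.409 in MEF. Lyzl4 had 0.0551 in iPS-OSH, 0.0687 in iPS-J, 0.353 in ESC and 0.228 in MEF. Lalba, the milk protein alpha-lactalbumin that shares the lysozyme fold, had 0.430 in iPS-OSH, 0.251 in iPS-J, 0.345 in ESC and 0.284 in MEF.

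Because Lyz1 and Lyz2 shared a pattern, their promoters are shown, from RefSeq's GRCm38.p6 annotation. The 150 bases before each start were the same at 86% of positions, compared base by base without gaps, and the 250 bases before the start at 60.8%. Capitals mark ACTTCC, which is GGAAGT on the other strand and lies from base 100 to base 95 before the start in both genes. GGAAGT holds the GGAA core that Ets factors such as PU.1, the product of Spi1, bind. Searched on both strands in the 250 bases before the start, it was found in 19.7% of 32851 promoters and in 3 of the 7 marker genes that were matched (Lyz1, Lyz2 and Ptprc). A match of letters shows no binding.
Lyz1 promoter, chr10:117292869-117293018, minus strand: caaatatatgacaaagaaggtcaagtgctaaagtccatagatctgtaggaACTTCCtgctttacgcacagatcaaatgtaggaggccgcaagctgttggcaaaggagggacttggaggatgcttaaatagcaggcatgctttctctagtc
Lyz2 promoter, chr10:117282273-117282422, minus strand: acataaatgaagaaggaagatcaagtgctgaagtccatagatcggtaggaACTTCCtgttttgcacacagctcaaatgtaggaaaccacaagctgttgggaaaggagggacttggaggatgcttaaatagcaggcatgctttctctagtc

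Tyrobp and Fcer1g encode the adaptors that pass the signal of activating receptors to the kinase Syk. Tyrobp, also called DAP12, serves Trem2 and related receptors, and gave signals of 1129 in iPS-OSH, 135 in iPS-J, 119 in ESC and 3104 in MEF. It repeated the order of Lyz1, with MEF highest, iPS-OSH next and the other 2 arrays low. Tyrobp was 6.65-fold higher in iPS-OSH than in iPS-J and 7.93-fold higher than in ESC, at 41.1% of MEF, and its ESC signal was under the ERCC level. Fcer1g (chr1:173159794-173159853), the shared gamma chain of Fc receptors, gave signals of 1544 in iPS-OSH, 367 in iPS-J, 883 in ESC and 4355 in MEF. MEF and iPS-OSH again led, but ESC lay well above iPS-J. Fcer1g was 3.34-fold higher in iPS-OSH than in iPS-J but only 1.46-fold higher than in ESC, and in iPS-J it was 2.28-fold lower than in ESC.

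The receptors and kinases around these adaptors did not share that pattern. Of 18 listed, 17 had a value on all arrays and 13 were well above background on some array. Both iPS-OSH and MEF stood at least 2-fold above both iPS-J and ESC for 1 of them, Trem2, a lipid receptor of macrophages that signals through Tyrobp. Trem2 gave relative signals of 0.629 in iPS-OSH, 0.186 in iPS-J, 0.131 in ESC, against 0.964 in MEF, and its ESC signal lay under the ERCC level. In contrast, 4 regulators of the pathway were higher in all 3 pluripotent populations than in MEF. Inpp5d, an inositol phosphatase that damps these receptors, had 6.01 in iPS-OSH, 6.53 in iPS-J, 8.21 in ESC, against 0.248 in MEF. Ptpn6, a tyrosine phosphatase that also damps them, had 1.66, 2.48 and 1.96 in the same order, against 0.170 in MEF. Plcg2, a phospholipase that acts after Syk, and Fgr, a Src-family kinase of myeloid cells, were higher than in MEF by 1.98 to 3.32 and by 2.63 to 3.59 on the log2 scale. The Fgr signal in MEF lay under the ERCC level, so its differences rest on a dim spot. Over the list, 5 of 12 genes compared were higher and 2 lower in iPS-OSH than in MEF, beside 12.6% and 23.4% over all genes. In iPS-J 5 of 12 were higher and 4 lower, beside 16% and 23.6%. In ESC 6 of 13 were higher and 3 lower, beside 21.8% and 16.5%.

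Csf1r is the receptor through which the growth factors Csf1 and Il34 keep macrophages alive. Its brightest probe (base 3806 of the transcript) gave signals of 2420 in iPS-OSH, 2777 in iPS-J, 2965 in ESC and 10496 in MEF. MEF stood above the 3 pluripotent populations, among which iPS-OSH was lowest. The gene was 3.84-fold lower in iPS-OSH, 2.66-fold lower in iPS-J and 2.62-fold lower in ESC than in MEF. A dim probe at base 2871 had 125 in iPS-OSH, 48.1 in iPS-J, 81.1 in ESC and 252 in MEF. This probe also put MEF highest, but its iPS-J, ESC and MEF signals lay under the level of the ERCC spots, and its log2 difference of 0.37 between iPS-OSH and ESC was close to the noise of dim spots, 0.34. The third probe, at base 1841, had 996 in iPS-OSH, 1026 in iPS-J, 1695 in ESC. Its MEF spot read 57188 with a pixel SD of 31187 around a mean pixel signal of 57263, was called uneven by the scanner software, and was left out. Both brighter probes put iPS-OSH lowest of the 3 pluripotent populations.

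Among 16 myeloid growth factors, receptors and transcription factors, 2 stood at least 2-fold higher in both iPS-OSH and MEF than in both other arrays: Csf1 and Cebpb. Csf1, the ligand of Csf1r that fibroblasts are known to secrete, gave relative signals of 27.6 in iPS-OSH, 2.54 in iPS-J, 1.17 in ESC, against 31.2 in MEF. Cebpb, a transcription factor of macrophages and of many other cells, had 6.97 in iPS-OSH, 2.37 in iPS-J, 1.98 in ESC, against 15.5 in MEF. Spi1, the master factor of myeloid cells, was well above background only in iPS-OSH (0.0263) and ESC (0.0472), and these values were under the ERCC level. Csf3, a growth factor for granulocytes, was well above background only in MEF (0.144). Tfec, a factor of the Mitf family, had 0.0811 in iPS-OSH, 0.720 in iPS-J, 0.0691 in ESC, against 0.0505 in MEF, and was the gene of this list that set iPS-J apart. In all, 2 of 15 genes compared were higher and 5 lower in iPS-OSH than in MEF, beside 12.6% and 23.4% over all genes. In iPS-J 3 of 14 were higher and 6 lower, beside 16% and 23.6%. In ESC 4 of 15 were higher and 5 lower, beside 21.8% and 16.5%.

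Cd68, a heavily glycosylated protein of macrophage lysosomes, did not follow the other markers. Its brightest probe (chr11:69477775-69477834) gave signals of 5942 in iPS-OSH, 5241 in iPS-J, 2386 in ESC and 3675 in MEF. Relative to each array, both iPS lines were above MEF and ESC, by 1.82-fold over MEF for iPS-OSH and by 2.03-fold for iPS-J. The difference between iPS-OSH and iPS-J, -0.15 on the log2 scale, was about as large as the spot noise. The other Cd68 probe (chr11:69478979-69479038) was dim, with 102 in iPS-OSH, 62.6 in iPS-J, 68.6 in ESC and 131 in MEF. Here MEF was highest and iPS-OSH next, all 4 values lay under the ERCC level, and the widest difference was 1.48-fold. The brightest probe carries a different name on the MEF array, whose file uses an older version of the array design, so by the names in that file alone MEF has 13 marker probes.

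Lysosomal genes that most cells use were measured beside Cd68. Of 15, 0 were at least 2-fold higher and 5 lower in iPS-OSH than in MEF, beside 12.6% and 23.4% over all genes. In iPS-J 0 were higher and 7 lower, beside 16% and 23.6%. In ESC 0 were higher and 10 lower, beside 21.8% and 16.5%. Ctsk, a cathepsin of osteoclasts and fibroblasts, gave relative signals of 5.19 in iPS-OSH, 0.739 in iPS-J, 0.424 in ESC, against 15.0 in MEF. Psap, which encodes the precursor of the saposins, had 13.1 in iPS-OSH, 4.69 in iPS-J, 4.37 in ESC, against 17.1 in MEF. These were the 2 of the 15 in which both iPS-OSH and MEF were at least 2-fold above both other arrays. Lamp2, a protein of the lysosome membrane, had 7.19 in iPS-OSH, 4.38 in iPS-J, 3.52 in ESC, against 21.3 in MEF. Cd63, a tetraspanin of lysosomes, had 83.6 in iPS-OSH, 62.7 in iPS-J, 29.5 in ESC, against 191 in MEF.

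Ptprc encodes CD45, the phosphatase on the surface of nearly all white blood cells. Its probe (chr1:139961083-139961142) gave signals of 142 in iPS-OSH, 92.6 in iPS-J, 207 in ESC and 303 in MEF. All 4 values were dim, those of iPS-J and ESC lay under the ERCC level, and the order was MEF, ESC, iPS-OSH and iPS-J. Ptprc was 1.89-fold lower in iPS-OSH and 2.30-fold lower in iPS-J than in MEF, with ESC at 92.1% of MEF. Unlike the lysozymes, Ptprc was not higher in iPS-OSH than in ESC: it stood at 57.4% of the ESC level.

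Of 26 further genes that white blood cells share, 24 had a value on all arrays and 23 were well above background on some array. Those in which both iPS-OSH and MEF stood at least 2-fold above both iPS-J and ESC were Lcp1, Cd53 and Cd52. Cd52, a small surface glycoprotein, gave relative signals of 0.548 in iPS-OSH, 0.121 in iPS-J, 0.169 in ESC, against 1.11 in MEF. Lcp1, an actin bundling protein, had 0.700 in iPS-OSH, 0.233 in iPS-J, 0.205 in ESC, against 1.55 in MEF. Cd53, a tetraspanin, had 0.232 in iPS-OSH, 0.0401 in iPS-J, 0.0555 in ESC, against 0.149 in MEF. The ESC signals of Cd52 and Cd53, and the iPS-J and MEF signals of Cd53, lay under the ERCC level. Plek, a substrate of protein kinase C in platelets and leukocytes, had 0.181 in iPS-OSH, 0.0490 in iPS-J, 0.212 in ESC, against 0.400 in MEF, so here ESC lay beside iPS-OSH. Spn, a sialoglycoprotein of leukocytes, was higher in all 3 pluripotent populations, with 1.82 in iPS-OSH, 1.18 in iPS-J, 1.53 in ESC against 0.130 in MEF. Its MEF signal lay under the ERCC level. Over the list, 2 of 23 genes compared were higher and 10 lower in iPS-OSH than in MEF, beside 12.6% and 23.4% over all genes. In iPS-J 2 of 23 were higher and 12 lower, beside 16% and 23.6%. In ESC 4 of 23 were higher and 6 lower, beside 21.8% and 16.5%. Itgb2, the beta chain that pairs with the product of Itgam, is among those without a value on all arrays, because its iPS-J spot was called uneven.

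Aif1 encodes Iba1, a calcium-binding protein of macrophages and microglia. Its probe (chr17:35307959-35308018) gave signals of 251 in iPS-OSH, 74.7 in iPS-J, 89.8 in ESC and 720 in MEF. MEF was highest and iPS-OSH next, and the iPS-J and ESC values lay under the ERCC level. Aif1 was 2.66-fold higher in iPS-OSH than in iPS-J and 2.33-fold higher than in ESC, and it reached 39.3% of the MEF level.

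Itgam encodes CD11b, the alpha chain of an integrin of monocytes, macrophages and neutrophils. Its brightest probe, the one that begins with a CA repeat, gave signals of 21101 in iPS-OSH, 8771 in iPS-J, 4655 in ESC and 40148 in MEF. By that probe MEF was highest and ESC lowest, with a log2 difference of -2.68 between ESC and MEF. The probe at base 270 had 287 in iPS-OSH, 266 in iPS-J, 801 in ESC and 483 in MEF. The probe at base 3410 had 176 in iPS-OSH, 145 in iPS-J, 403 in ESC and 363 in MEF. Both of these put ESC highest and gave log2 differences between ESC and MEF of 1.16 and 0.58. Between iPS-OSH and ESC the repeat probe gave a difference of 1.92, and the other 2 gave -1.74 and -1.46. The direction of Itgam in these comparisons was therefore that of the chosen probe.

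The CA repeat of the Itgam probe was set beside all probes of the array that hold a run of CA of at least 16 bases. There were 35, the Itgam probe among them, and 34 had a value on all arrays. Their median relative signal was 9.88 in iPS-OSH, 4.77 in iPS-J, 2.56 in ESC, against 10.8 in MEF. In iPS-J 33 of the 34 were lower than in MEF, and in ESC also 33, with median log2 differences of -1.22 and -1.88. In iPS-OSH 20 were lower, with a median of -0.31. Probes of many genes that share this repeat thus gave the same order of iPS-OSH, iPS-J and ESC as the Itgam repeat probe, whereas the 2 Itgam probes without it gave another order.

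**Figure D2:**
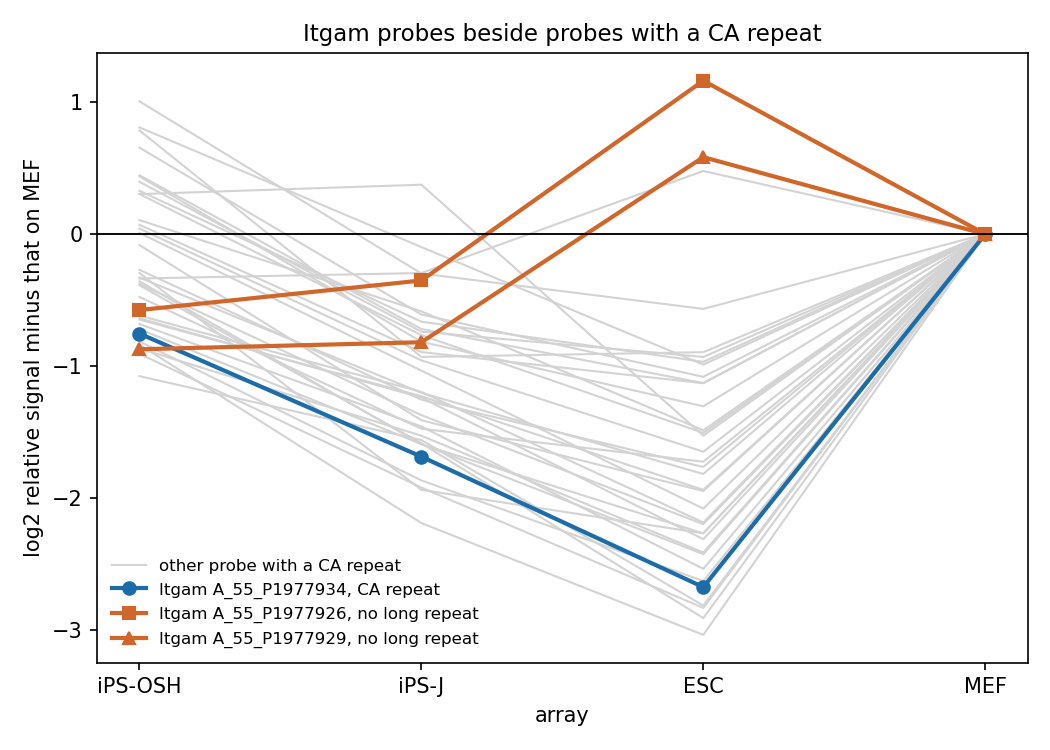
Log2 relative signal minus that on MEF (vertical axis) on the iPS-OSH, iPS-J, ESC and MEF arrays, for the 3 Itgam probes in colour and the other probes with a CA run of at least 16 bases in grey. The Itgam repeat probe lies at -2.68 in ESC among the grey lines, and the other Itgam probes at 1.16 and 0.58.

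In the comparison of iPS-OSH with MEF, 0 of the 9 markers were at least 2-fold higher and 5 were lower: Lyz1, Tyrobp, Fcer1g, Csf1r and Aif1. Over all genes compared, 12.6% were higher and 23.4% lower. The median log2 difference of the markers was -1.28, beside -0.32 over all genes. Fewer cells of a type and less RNA per cell cannot be told apart in these bulk samples, here and in what follows.

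In iPS-J against MEF 1 marker was higher (Cd68) and the other 8 were lower, with a median of -2.76, beside -0.25 over all genes, of which 16% were higher and 23.6% lower. Tyrobp showed the widest gap, at 16.2-fold lower in iPS-J, followed by Lyz1 at 14.7-fold and Lyz2 at 10.6-fold. Without probes that hold a CA repeat, 7 markers were lower, because Itgam then lay within 2-fold.

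In ESC against MEF 0 markers were higher and 7 lower, with a median of -2.57, beside 0.13 over all genes, of which 21.8% were higher and 16.5% lower. Tyrobp was 19.3-fold lower in ESC, Lyz1 17.3-fold, Lyz2 6.66-fold and Aif1 5.94-fold. Cd68 and Ptprc lay within 2-fold of MEF. Itgam was higher in ESC, by 1.16 on the log2 scale, once the repeat probe was left out.

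In iPS-OSH against ESC 6 markers were higher (Lyz1, Lyz2, Tyrobp, Cd68, Aif1 and Itgam) and 0 lower, with a median of 1.22, beside -0.30 over all genes, of which 8.73% were higher and 26.5% lower. Without the repeat probe Itgam was lower, at -1.74. In iPS-J against ESC 1 marker was higher (Cd68) and 2 lower (Fcer1g and Ptprc), with a median of -0.02, beside -0.18 over all genes, of which 5.37% were higher and 23% lower. Without the repeat probe Itgam was lower there too, at -1.51, which made 1 higher and 3 lower. Lyz1 differed there by 0.23, close to the spot noise of 0.20. Tyrobp, dim on both arrays, differed by 0.26, under the noise of dim spots, 0.39.

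The comparison of iPS-OSH with iPS-J holds strain, medium and scan session the same. In it 5 markers were higher in iPS-OSH (Lyz1, Lyz2, Tyrobp, Fcer1g and Aif1) and 0 lower, with a median of 1.41, beside -0.02 over all genes, of which 7.86% were higher and 7.28% lower. Their log2 differences were 2.51, 3.10, 2.73, 1.74 and 1.41. Csf1r, Cd68, Ptprc and Itgam lay within 2-fold.

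**Figure D3:**
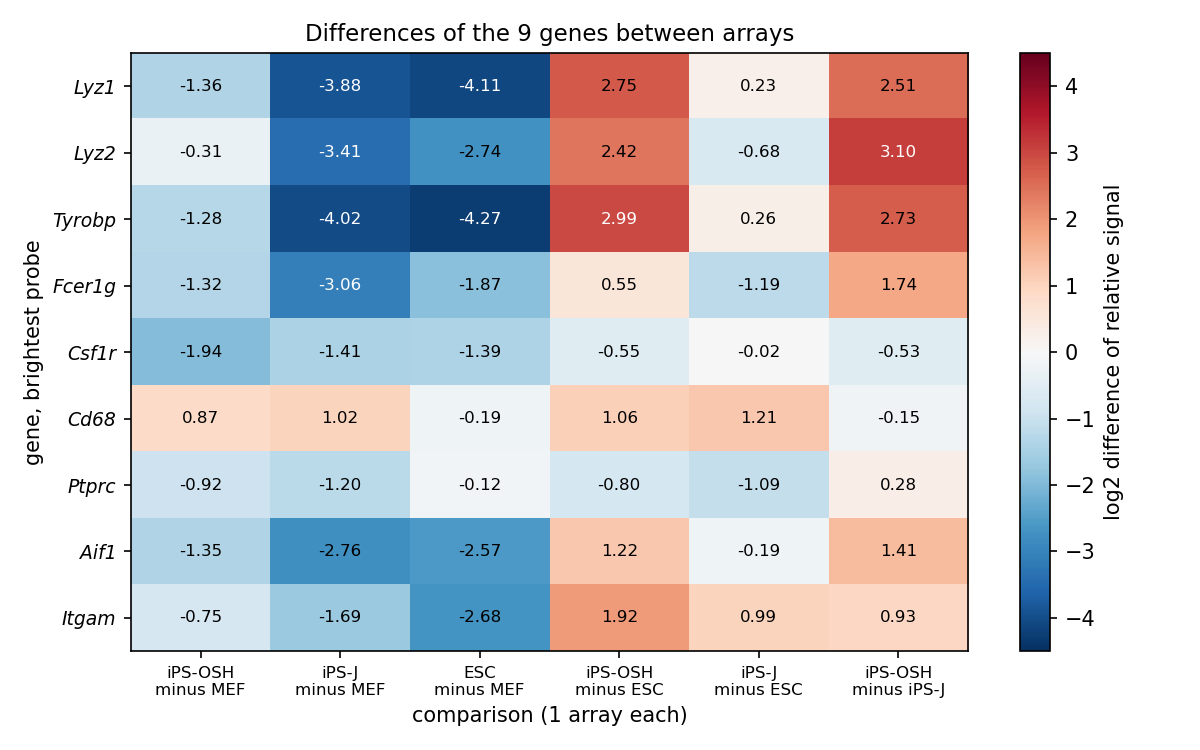
Log2 difference of relative signal, printed and coloured (red higher, blue lower in the population named before the minus sign), of the 9 genes by their brightest probe in the 6 comparisons. Lyz1, Lyz2, Tyrobp and Aif1 are blue against MEF for iPS-J and ESC, and red for iPS-OSH against ESC and against iPS-J.

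Across the 4 arrays, Lyz1, Lyz2, Tyrobp and Aif1 stood at least 2-fold higher in both iPS-OSH and MEF than in both iPS-J and ESC. Of all 31861 genes well above background on some array, 1300 did so, or 4.08%. By their brightest probes, MEF was highest for 8 of the 9 markers, all but Cd68, although 2 of the 3 Itgam probes put ESC highest. The summed relative signal of the 9 markers was 24.8 in iPS-OSH, 14.7 in iPS-J, 9.27 in ESC, against 45.3 in MEF. Without Itgam, whose repeat probe alone gave 13.5 in iPS-OSH, 7.07 in iPS-J, 3.56 in ESC, against 22.7 in MEF, the other 8 summed to 11.3 in iPS-OSH, 7.67 in iPS-J, 5.71 in ESC, against 22.5 in MEF.

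Further macrophage genes were taken from a list of 24, of which all had a value. Those in which both iPS-OSH and MEF stood at least 2-fold above both iPS-J and ESC were C1qa, C1qc, Trem2, Ctss and Ms4a7. C1qc, a chain of the complement component C1q made mainly by macrophages, gave relative signals of 0.600 in iPS-OSH, 0.0715 in iPS-J, 0.0948 in ESC, against 1.38 in MEF. Ms4a7, a membrane protein of macrophages, had 0.606 in iPS-OSH, 0.0661 in iPS-J, 0.135 in ESC, against 1.57 in MEF. Ctss, the cathepsin of antigen-presenting cells, had 0.574 in iPS-OSH, 0.100 in iPS-J, 0.114 in ESC, against 1.46 in MEF. These values followed Lyz1 and Tyrobp, with iPS-OSH below MEF and far above the other 2 populations. C1qa, another C1q chain, was higher in iPS-OSH than in iPS-J by 2.53 and than in ESC by 1.89 on the log2 scale. The iPS-J and ESC signals of C1qa, C1qc and Ms4a7 lay under the ERCC level. So did the ESC signals of Ctss and Trem2. The differences from those arrays thus rest on dim spots.

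Most of the list did not do so: 5 of the 24 met this 2-fold split, beside 4.08% of genes well above background on some array. Adgre1, an adhesion receptor on the surface of mature macrophages, gave relative signals of 0.352 in iPS-OSH, 0.145 in iPS-J, 0.241 in ESC, against 0.465 in MEF, so that ESC and iPS-OSH lay within 2-fold. Cd14, a receptor for bacterial endotoxin, gave 0.580 in iPS-OSH, 0.226 in iPS-J, 0.339 in ESC, against 0.961 in MEF. Cx3cr1, the fractalkine receptor, was not well above background in iPS-OSH, and gave relative signals of 0.0482 in iPS-J, 0.206 in ESC, against 0.467 in MEF. It was at least 20.7-fold lower in iPS-OSH than in MEF. Cd163, a scavenger receptor for haemoglobin, was well above background only in iPS-J, at 0.0699. P2ry12, a receptor of microglia, was so only in MEF. These Cd163 and P2ry12 signals lay under the ERCC level.

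Over the list of 24, iPS-OSH had 0 genes higher and 10 lower than MEF among 23 compared, with a median of -0.82. Over all genes, 12.6% were higher and 23.4% lower. iPS-J had 1 higher and 16 lower among 24 compared, with a median of -1.79, beside 16% and 23.6% over all genes. ESC had 2 higher and 13 lower among 23, with a median of -1.34, beside 21.8% and 16.5%. Against ESC, iPS-OSH had 6 higher and 2 lower among 22 (median 0.56), beside 8.73% and 26.5% over all genes. Also against ESC, iPS-J had 2 higher and 7 lower among 21 (median -0.73), beside 5.37% and 23%. Against iPS-J, iPS-OSH had 10 higher and 2 lower among 23, with a median of 0.82, beside 7.86% and 7.28% over all genes. The summed relative signal of the list was 6.94 in iPS-OSH, 3.14 in iPS-J, 5.21 in ESC, against 13.8 in MEF.

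Granule and oxidase genes of phagocytes gave no such split. Among 16, both iPS-OSH and MEF were at least 2-fold above both other arrays for 1, Ncf4, a subunit of the phagocyte oxidase. Its relative signals were 0.210 in iPS-OSH, 0.0720 in iPS-J, 0.0874 in ESC against 0.330 in MEF, with iPS-J and ESC under the ERCC level. Cybb, the catalytic subunit, had 0.0538 in iPS-OSH, 0.0490 in ESC and 0.0441 in MEF, all under the ERCC level, and was not well above background in iPS-J. Mpo, the peroxidase of neutrophil granules, and Ltf, an iron-binding granule protein, were under the ERCC level on every array. Prtn3, a granule protease, gave relative signals of 0.0713 in iPS-OSH, 0.0790 in iPS-J, 0.158 in ESC, and in MEF it did not rise well above background. ESC had 7 of 14 genes compared higher and 4 lower than MEF, beside 21.8% and 16.5% over all genes. In iPS-OSH 2 of 15 were higher and 3 lower, beside 12.6% and 23.4%. In iPS-J 1 of 13 was higher and 4 lower, beside 16% and 23.6%.

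**Figure D4:**
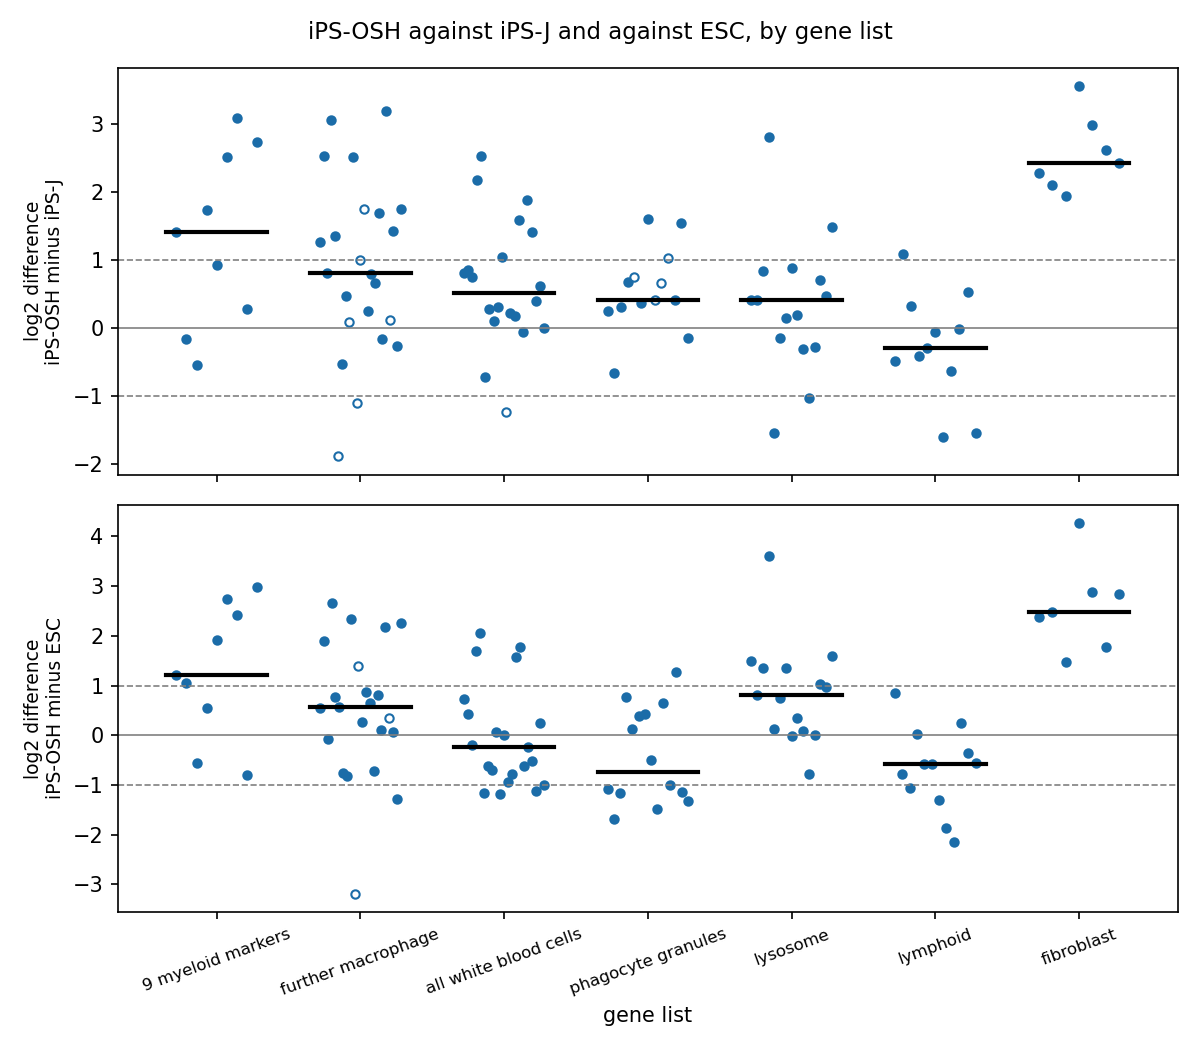
Log2 difference of each gene (points, open where the value is a bound) in iPS-OSH against iPS-J (top) and against ESC (bottom), by gene list, with black bars at list medians and dashed lines at 2-fold. The medians of the 9 markers are 1.41 and 1.22, those of the further macrophage genes 0.82 and 0.56, and those of the 7 fibroblast genes 2.44 and 2.48.

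Fibroblast genes split the arrays as Lyz1, Lyz2, Tyrobp and Aif1 did, but not as the other markers did. In iPS-OSH all 7 exceeded iPS-J and ESC by at least 2-fold, beside 7.86% and 8.73% over all genes. Their median log2 differences were 2.44 and 2.48, beside -0.02 and -0.30 over all genes. All 7 belonged to the genes with both iPS-OSH and MEF at least 2-fold above both other arrays. Of genes well above background on some array, 4.08% did so. Col1a1, a chain of type I collagen, gave relative signals of 38.3 in iPS-OSH, 7.86 in iPS-J, 7.38 in ESC, against 226 in MEF. Thy1, a surface protein of fibroblasts, had 98.1 in iPS-OSH, 18.1 in iPS-J, 13.7 in ESC, against 209 in MEF. Lum, a matrix proteoglycan, had 1.07 in iPS-OSH, 0.135 in iPS-J, 0.145 in ESC, against 1.44 in MEF, with its ESC signal under the ERCC level. MEF was highest for 6 of the 7, whereas Dcn, a matrix proteoglycan as well, had 39.4 in iPS-OSH and 15.6 in MEF. The part of these cells' RNA in the marker signals was not tested.

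The genes whose pattern over the 4 arrays was nearest to each marker were taken from 17876 with a common symbol, by the root mean square (RMS) of the difference between centred log2 profiles. With 4 arrays these are descriptions only. Nearest to Lyz1 were Loxl4, a lysyl oxidase (RMS 0.07), and Cav2, a caveolin. Tyrobp lay nearest to Fosl2, an AP-1 transcription factor (RMS 0.04), and Synpo, an actin-associated protein. For Lyz2 they were Ifi204 and Mndal, a pair of interferon-inducible genes (RMS 0.07 and 0.08). Fcer1g came nearest to Casp4 and Bdnf, and Aif1 to Sphk1, a sphingosine kinase (RMS 0.03), and Mgst1. For Csf1r they were Tacc1 and Cd200r1. The Cd200r1 values of iPS-OSH, iPS-J and ESC, at 0.0134, 0.0195 and 0.0180, lay under the lowest well-above-background value of their arrays, so they give no likeness among these 3. For Cd68 they were the DNA helicase gene Ercc2 and Hdgf, and for Ptprc Vmn1r192 and Fcgr4. The Itgam repeat probe lay nearest to Ext1 and Extl2, both glycosyltransferases of heparan sulphate synthesis.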

How the data were processed

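RNA of 4 mouse cell populations was labelled with Cy3 and hybridized to 1-colour Agilent arrays, 1 array per population, per the labels' protocols. The deposited scanner output holds an intensity per spot. Per the file headers it was made with Agilent Feature Extraction 10.5.1.1, whose processed signal has the background subtracted and spatial trends removed, and arrays were not normalized to each other. The value table, also deposited, holds the same intensity, rounded, and deviated from it by at most 0.497%.

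Of 62976 spots, 59305 were not controls and held 55681 probes. Uneven or outlying spots (203 to 531 per array) were dropped, and 54963 probes kept a value on every array. Each array was scaled to its 75th percentile over non-control spots. Probes were named from the design version shared by 3 arrays, by accession for 26425 probes, symbol for 3988 and synonym for 826 from a RefSeq table (GRCm38.p6), and by the file for 24442. A gene was represented by its brightest probe, and compared if 1 or both of the arrays showed it well above background. Where only 1 did, the difference is a bound. No p-value can be had from 1 array per group, and the number of arrays limits the precision.

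The 9 markers and the 12 other gene lists (macrophage, adaptor signalling, growth factors, white blood cells, granules, lysosome, lysozyme family, lymphoid, mast cell with erythroid and platelet, endothelial, pluripotency, fibroblast) were chosen with earlier results of these data known. Named genes are all markers, all of the lysozyme family and of the pluripotency and fibroblast lists, the 4 genes with the widest log2 range in each other list, and the 2 nearest patterns per marker. A gene that this rule takes is not reported here. Other genes in counts of 5 or fewer, and Adgre1, Cd14, Csf1, Cebpb, Spi1, P2ry12, Ncf4 and Itgb2, were named after their values were seen. The procedure was tested on simulated data. Python 3.11.15, pandas 2.3.3, R 4.3.3 and limma 3.58.1 were used. Alternatives were normexp background correction (offset 50), quantile normalization, the percentile over probes detected on all arrays, spike-in scaling, detection on both arrays, ERCC-based detection, the median over probes, the value table and a 4-fold threshold. Leaving out probes with a CA repeat and keeping uneven spots were chosen after seeing the data.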

Additional observations from a re-analysis of the deposited data

How the results depend on the processing

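No paired analysis was possible because each population has 1 array. The counts of genes at least 2-fold different stayed within 1.5 times their value in 116 of 132 alternatives. With a 4-fold threshold the markers that differed were 0 in iPS-OSH against MEF, 5 in iPS-J against MEF, 3 in iPS-OSH against ESC, 0 in iPS-J against ESC and 3 in iPS-OSH against iPS-J, and the further macrophage genes were 2, 9, 5, 1 and 4 in the same comparisons and 7 in ESC against MEF; fewer genes pass by construction. Quantile normalization gave 1 marker in iPS-J against ESC and 15 macrophage genes in iPS-OSH against ESC. Normexp correction gave 3 macrophage genes in iPS-J against ESC and 7 in iPS-OSH against iPS-J, and ERCC-based detection gave 4 in iPS-J against ESC; the cause was not tested.

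For single markers, Itgam turned to 1.16 in ESC against MEF and to -1.74 in iPS-OSH against ESC, and it was -1.51 in iPS-J against ESC and -0.22 in iPS-OSH against iPS-J (0.99 and 0.93 by the repeat probe), both with the median over probes and without CA repeat probes, since another probe then stands for the gene. Lyz1, Lyz2 and Tyrobp kept their direction and side of 2-fold against ESC and against iPS-J for iPS-OSH in all 8 alternatives to the scaling, probe and table, with ranges of 2.56 to 3.15, 1.98 to 2.95 and 2.33 to 3.49 against ESC. Aif1 did so in 7 of 8, and fell to 0.65 against ESC and 0.74 against iPS-J with normexp correction. Cd68 stayed past 2-fold in iPS-OSH against ESC in 4 of 8 and in iPS-J against MEF in 5 of 8, and Ptprc in iPS-J against MEF in 6 of 8 and in iPS-J against ESC in 5 of 8.

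Scaling moved all genes too. Their median log2 difference in ESC against MEF was 0.13, but -0.39 with spike-in scaling and 0.40 with the percentile over probes detected on all arrays, and in iPS-OSH against ESC it was -0.30, but 0.11 with spike-in scaling. Of the genes called different, the share higher was 57.0% in ESC against MEF (31.5% with spike-in scaling), 24.8% in iPS-OSH against ESC (51.8%), 18.9% in iPS-J against ESC (35.9%, and 48.2% with quantile normalization), 40.4% in iPS-J against MEF (26.9%), 51.9% in iPS-OSH against iPS-J (66.2%) and 35.0% in iPS-OSH against MEF (45.0% with quantile normalization). The dim signals of Lyz2, Tyrobp, Aif1 and Ptprc in iPS-J or ESC limit how far their differences can be trusted.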

Other observations

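Markers of other blood and vessel cells were measured beside the myeloid ones. Pf4 and Ppbp, chemokines of platelets that macrophages are also known to make, followed the lysozymes. Pf4 gave relative signals of 1.19 in iPS-OSH, 0.156 in iPS-J, 0.135 in ESC, against 2.83 in MEF. Ppbp had 0.669 in iPS-OSH and 0.0504 in iPS-J, was not well above background in ESC, and had 1.42 in MEF. The Pf4 signal of ESC and the Ppbp signal of iPS-J lay under the ERCC level. Gata1, a factor of erythroid cells and platelets, went the other way, with 0.291 in iPS-OSH, 0.488 in iPS-J, 0.452 in ESC, against 0.0230 in MEF, under the ERCC level there. Among 11 mast cell, erythroid and platelet genes these 2 chemokines were the ones with both iPS-OSH and MEF at least 2-fold above both other arrays.

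Among 14 lymphoid genes, 0 had both iPS-OSH and MEF above both other arrays. A comparison of iPS-OSH with MEF was possible for 13 of them. In 5 of the 13 iPS-OSH exceeded MEF by 2-fold or more, and in 0 it fell that far below. The shares over all genes were 12.6% and 23.4%. Zap70, a kinase of T cells, gave relative signals of 1.02 in iPS-OSH, 2.99 in iPS-J, 1.51 in ESC, against 0.110 in MEF. Cd79b, a B cell receptor chain, had 0.335 in iPS-OSH, 1.02 in iPS-J, 1.22 in ESC, against 0.0293 in MEF. The MEF signals of Zap70 and Cd79b lay under the ERCC level. Blnk, a B cell adaptor, and Cd2, a T cell adhesion protein, were also higher in the 3 pluripotent populations, and Cd2 was not well above background in MEF. Of 6 endothelial genes, 2 were higher and 2 lower in iPS-OSH than in MEF, beside 12.6% and 23.4% over all genes. Cd34 had 1.57 in iPS-OSH, 0.683 in iPS-J, 1.11 in ESC, against 7.47 in MEF. Pecam1 had 0.613 in iPS-OSH, 0.566 in iPS-J, 1.09 in ESC, against 0.169 in MEF.

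Probes with a run of TG of at least 16 bases, the complement of the CA repeat, went opposite to those with CA. There were 75, with median log2 differences of 0.36 in iPS-OSH, 0.99 in iPS-J, 0.88 in ESC against MEF, and 2 of them were lower in iPS-J than in MEF. No cause was tested.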
